A study of Mus musculus with 4 samples.

Results

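This account covers 42 genes of the striated muscle sarcomere, its calcium store and its fuel supply, read in mouse abdominal aortic tissue. The members were picked out by gene name on the array, from a list drawn up with earlier results of these data known, and all 42 were measured, out of 22497 genes tested in all. By the forms they encode they were divided into 14 genes of fast fibres, 13 of slow fibres or heart, 13 shared by both kinds of fibre, and 2 developmental myosin heavy chains, Myh3 and Myh8. RNA came from 12-week-old male mice, of wild type or SR-A1-/- genotype, and all animals had received CaPO4, with tissue taken 4 weeks after the operation. SR-A1 is the class A scavenger receptor encoded by Msr1. The labels give 2 arrays for wild type, W2 and W3, and 2 for SR-A1-/-, K4 and K5, with no untreated group. The labels used here state neither the strain, nor how the allele was made, nor whether tissue of several animals was pooled. The design text speaks of 2 independent experiments, but nothing says that the 2 arrays of a group came from separate animals, so p-values measure the spread between these arrays, which may be technical.

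A sarcomere is the contractile unit of striated muscle, in which myosin motors of the thick filament pull on actin of the thin filament once calcium binds troponin. Most of its parts exist in forms encoded by separate genes, so that fast fibres, slow fibres, heart and developing or regenerating fibres each draw on their own set. The aortic wall itself contracts with smooth muscle, which uses other myosin and actin genes and has no sarcomeres. Striated muscle RNA in dissected aorta can come from muscle lying beside the vessel, and in tissue RNA fewer cells of a type and less RNA per cell cannot be told apart.

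Each array spot was a 60-base probe, and the first 30 bases of those for the 5 clustered myosin heavy chain genes, and for Mb and Csrp3, are shown because the contrasts between neighbouring myosin genes, and the members with the smallest p-values, rest on them. Positions are on mouse build mm9, as the array files give them, and all 5 myosin probes lie on the forward strand near the 3′ end of their transcripts.
Myh3: ctgacaattctacttaatttccacgtatca
Myh2: aatgaccgaagcgaggcacaaaatgtgaaa
Myh1: ggaggttcacaccaaaatcataagcgaaga
Myh4: gaagaataatccatctttctgttgagaggt
Myh8: ccaggtcaacaagctgcgggtgaagagccg
Mb: cattttcttctggttttgggaaaatctctt
Csrp3: gagtctacaaatgtcactgacaaggatggg
The probe of Myh3 lies at chr11:66915724-66915783, that of Myh2 at chr11:67010910-67010969, that of Myh1 at chr11:67037938-67037997, that of Myh4 at chr11:67073834-67073893 and that of Myh8 at chr11:67121925-67121984. The Mb probe lies on the reverse strand at chr15:76846069-76846128. The Csrp3 probe, also reverse, spans chr7:56086063-56087977, which is longer than the probe, so it joins sequence from both sides of at least 1 intron. Exon and UTR annotation of mm9 was not used here.

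A level below is the log2 of the background-subtracted signal of a gene's brightest probe minus the log2 of the array's 75th percentile, so 0 is that percentile and 1 unit is a 2-fold step. Differences are SR-A1-/- minus wild type by the labels, with the standard error of limma, a linear model fitted over all genes, and with 2 arrays in each group. The arrays came from 1 slide and 1 scan time, their 75th percentile signals lay between 132 and 245, and 57.6% to 62.6% of probes were well above background. Msr1, the targeted gene, was not lower on the arrays labelled SR-A1-/-: its brightest tested probe read -5.3 on W2, -2.1 on W3, -1.26 on K4 and -2.09 on K5, a difference of 2.03 ± 1.09 (limma adjusted p = 0.965), with W3 and K5 nearly level. W2 was not well above background for this probe, and the difference was 1.5 with W2 raised to the background limit, 0.42 without W2, 3.63 without W3 and 0.46 with normexp, another background correction. The other Msr1 probe, well above background on 3 arrays, read -6.4 on W2, -2.12 on W3, -1.5 on K4 and -1.38 on K5, a difference of 2.82. Where in Msr1 the allele was altered is not stated, so these probes may lie outside the deleted stretch. Genotypes are therefore given as labelled throughout, and every direction rests on those labels.

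No member passed the test over all genes, limma with a Benjamini-Hochberg adjusted p under 0.05, and neither did any other gene (0% of 22497, with a lowest adjusted p of 0.0539), while 6.29% of all genes had an unadjusted p under 0.05. With normexp background correction 3 members passed, Mb, Myh1 and Sln, among 21 of all genes. Without adjustment, 8 members were higher on the arrays labelled SR-A1-/- and 14 lower at limma p under 0.05, where 3.84% of all genes were higher and 2.45% lower. With every array required to be well above background, 38 members and 20085 genes were left. These numbers of members were then 5 and 17, beside 1183 of those genes in either direction. Counting members whose 2 arrays in one group both lay beyond both arrays of the other, 9 were higher and 20 lower, and the background shares were 16.1% and 13.7% of all genes, or 29.8% in either direction. At a difference of at least 2-fold as well, 9 were higher and 19 lower, against 3.96% and 2.44% of all genes. The members' median difference was -1.31, and the median of all genes was -0.01. A single value cannot be tested further here, since 2 arrays against 2 give an exact two-sided permutation p of 0.333 at the smallest.

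The classes went different ways, and their counts stand beside 16.1% of all genes higher and 13.7% lower without overlap. Of the 14 fast genes, 12 were lower without overlap and 1 was higher, with a median difference of -1.96. Of the 13 shared genes, 6 were lower without overlap, none was higher, and the median was -1.43. The 13 slow or cardiac genes had 7 higher without overlap, 1 lower and a median of 1.08, which was 0.16 with normexp background correction. Csrp3 and Tnnc1, among the 7, were kept for testing only because both arrays labelled SR-A1-/- were well above background. With every array required to be well above background, the median of this class was 0.79. These counts were not tested, because the members were grouped with results of these data known.

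After each gene was centred on its own mean over the 4 arrays, the median of the fast genes was 1.91 on W2, 0.06 on W3, -1.36 on K4 and -0.57 on K5. That of the shared genes was 1.77, -0.25, -1.23 and -0.36 on the same arrays. The slow or cardiac median ran the other way, at -0.66 on W2, -0.54 on W3, 0.12 on K4 and 0.67 on K5. The fast median minus the slow or cardiac median was therefore 2.56 on W2, 0.6 on W3, -1.48 on K4 and -1.25 on K5. Both arrays labelled wild type were above both labelled SR-A1-/-, with means of 1.58 and -1.36 and a difference of -2.94, beside a spread within groups of 0.99 (SD).

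**Figure D1:**
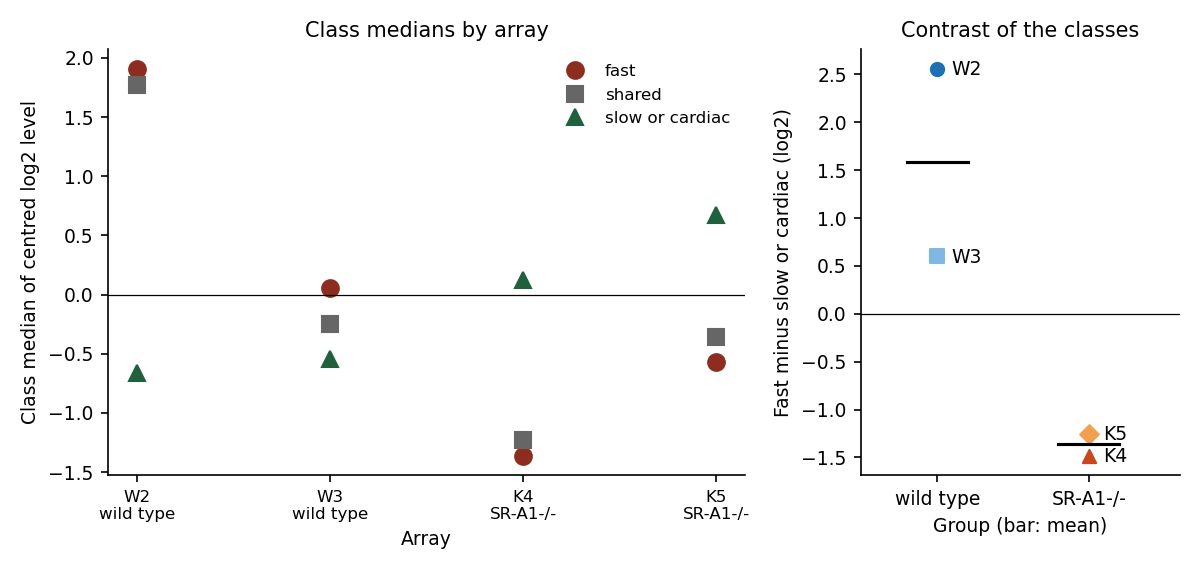
Left, for each array (x axis), the median over the genes of a class of the log2 level centred on each gene's mean over the 4 arrays. Right, the fast median minus the slow or cardiac median on each array, by labelled group, with a bar at the group mean: 2.56 and 0.6 for wild type lie above -1.48 and -1.25 for SR-A1-/-.

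W2 had the highest level of 29 of the 42 members, including 12 of 14 fast and 13 of 13 shared genes but 3 of 13 slow or cardiac genes, whereas it was the highest array for 25.1% of all genes. K4 was the lowest array for 26 members, against 21.7% of all genes. Between the 2 arrays labelled wild type, W2 minus W3 had a median of 1.73 over the fast genes and 1.95 over the shared genes, so for these classes the spread inside one group was about as large as the difference between groups. Over the slow or cardiac genes it was -0.19. Without W2 the median difference was -1.09 for the fast and -0.66 for the shared genes, and without W3 it was -2.91 and -2.55. The slow or cardiac median was 1.07 without W2 and 1.11 without W3. W2 and K5 also had lower overall signal than W3 and K4. Within the low-signal pair, K5 minus W2 had a median of -2.47 over the fast, -2.17 over the shared and 1.4 over the slow or cardiac genes, and within the high-signal pair K4 minus W3 gave -1.5, -0.93 and 0.45.

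**Figure D2:**
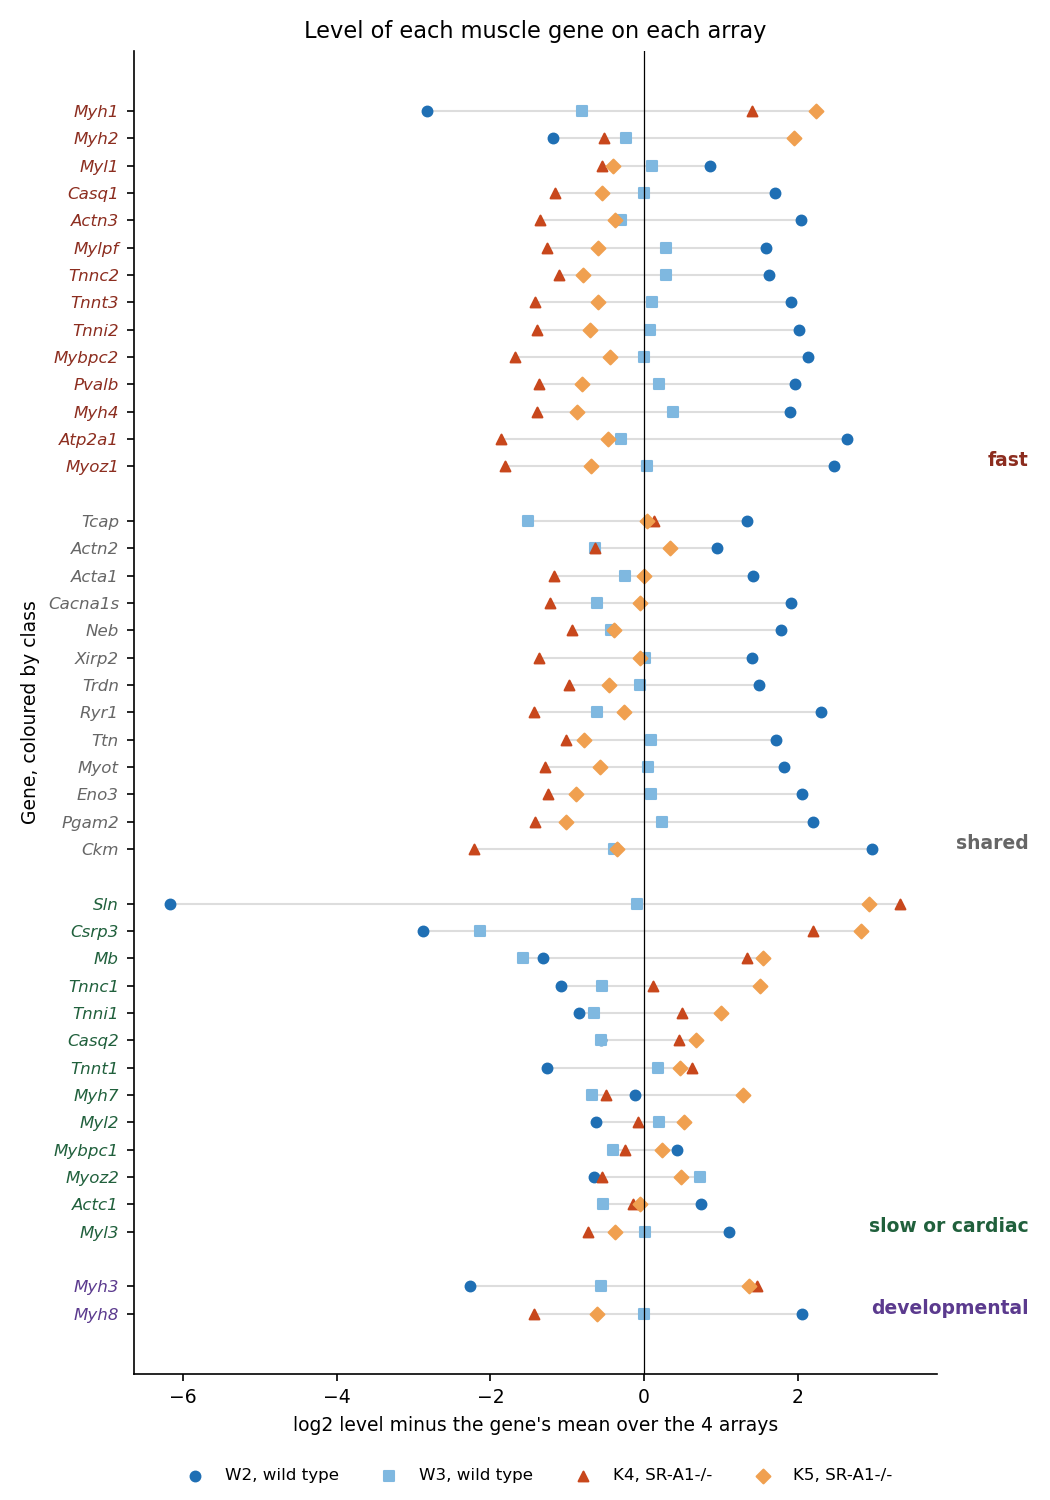
The log2 level of each of the 42 genes on each array, minus the gene's mean over the 4 arrays (x axis), with genes grouped and coloured by class (y axis) and 1 symbol per array. W2 is the rightmost symbol for 12 of 14 fast and 13 of 13 shared genes and for 3 of 13 slow or cardiac genes.

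Myosin heavy chains are the motors of the thick filament, and in mouse the skeletal forms sit side by side on chromosome 11 in the order Myh3 (embryonic), Myh2 (fast IIa), Myh1 (fast IIx), Myh4 (fast IIb) and Myh8 (perinatal), as the RefSeq gene table also lists them. Neighbours in this row differed in direction. Myh4, the heavy chain of the fastest fibres, read 8.36 on W2, 6.84 on W3, 5.06 on K4 and 5.58 on K5, a difference of -2.28 ± 0.58 (4.85-fold lower; limma adjusted p = 0.531). Both arrays labelled SR-A1-/- were below both others, and all 3 Myh4 probes went the same way. Myh1 read -0.66 on W2, 1.35 on W3, 3.56 on K4 and 4.39 on K5, a difference of 3.63 ± 0.74 (12.4-fold higher; limma adjusted p = 0.386). It was the only fast gene with both arrays labelled SR-A1-/- above both others, and it has 1 probe. For Myh2 the levels were -2.91, -1.96, -2.24 and 0.23 in the same order, and the groups overlapped, with K5 alone standing high (1.43 ± 0.88).

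Myh3, used by embryonic and regenerating fibres, read -3.73 on W2, -2.03 on W3, 0 on K4 and -0.1 on K5. Its difference was 2.83 ± 0.61 (7.13-fold higher; limma adjusted p = 0.427), from the probe that starts at base 5922 of the transcript, while the probe that starts at base 170 was above background on no array. Myh8 was the other developmental chain and went the opposite way at its 3′ probe, which starts at base 5937 and read 8.86, 6.8, 5.38 and 6.19 (-2.04 ± 0.75; limma adjusted p = 0.766). Its 3 other probes did not carry that signal. The Myh8 probes that start at bases 2202 and 2970 were above background on no array, and the one at base 326 was above background on 1 array, reading -6.6 on W2, -7.32 on W3, -5.05 on K4 and -3.69 on K5. The direction of Myh8 therefore rests on 1 of 4 probes. Slow fibres and the heart ventricle use Myh7, which lies elsewhere in the genome and read -2.96 on W2, -3.51 on W3, -3.33 on K4 and -1.55 on K5, with overlapping groups (0.79 ± 0.65).

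**Figure D3:**
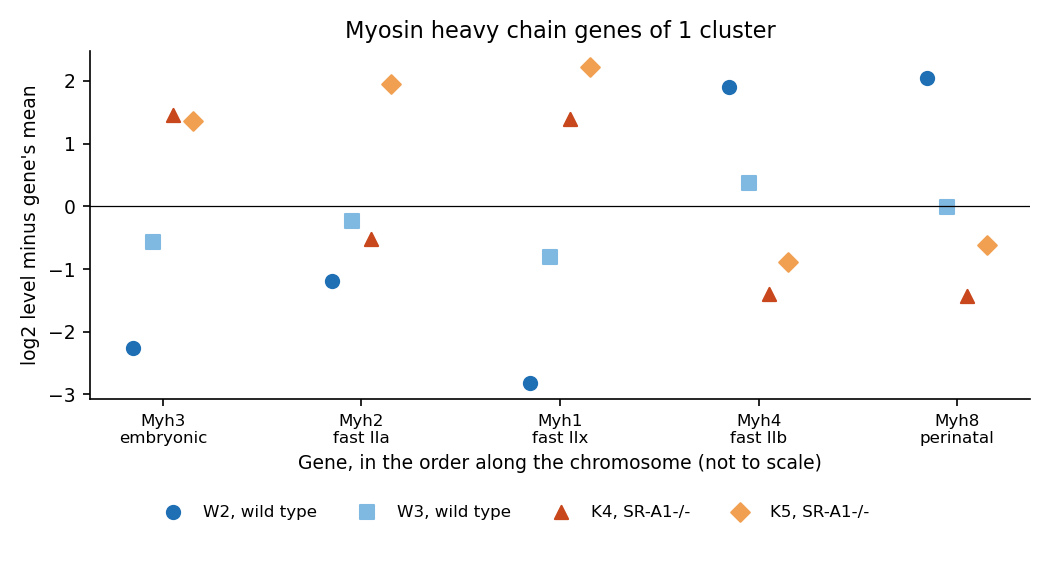
Levels of the 5 clustered myosin heavy chain genes, as log2 level minus the gene's mean over the 4 arrays (y axis), in their order along the chromosome (x axis, not to scale), with 1 symbol per array. Myh3 and Myh1 have both arrays labelled SR-A1-/- above those labelled wild type, Myh4 and Myh8 have both below, and Myh2 overlaps.

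The letters of these probes can be similar, as the genes are. The longest run of bases shared by probes of different members was 19, between Myh8 and Myh1, and it is set in capitals here, in the last 30 bases of the Myh8 probe and the first 30 of the Myh1 probe, both 5′ to 3′.
Myh8, bases 31 to 60: aGAGGTTCACACCAAAATCAgcgcagagta
Myh1, bases 1 to 30: gGAGGTTCACACCAAAATCAtaagcgaaga
The run lies at bases 32 to 50 of the Myh8 probe and 2 to 20 of the Myh1 probe. These 2 probes gave differences of opposite sign, -2.04 and 3.63. Whether either probe binds the transcript of a neighbouring gene was not tested.

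Of the 14 fast genes, Myh1 and Myh2 had positive differences and the other 12, Myh4 among them, negative ones without overlap, 9 of these at an unadjusted limma p under 0.05. Over all genes, 13.7% were lower without overlap and 2.45% were lower at that p. Among the light chains that sit on the myosin neck, Mylpf, the fast regulatory chain, read 5.9 on W2, 4.6 on W3, 3.05 on K4 and 3.71 on K5 (-1.87 ± 0.54). Myl1, the fast essential chain, read 6.74, 5.99, 5.34 and 5.49, a smaller difference of -0.95 ± 0.36 that all 4 of its probes shared in direction. Mybpc2, the fast form of the protein that ties myosin to the thick filament backbone, read 4.8 on W2, 2.67 on W3, 0.99 on K4 and 2.22 on K5 (-2.13 ± 0.83). For each of these genes W2 was the highest array and K4 the lowest.

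The 3 fast genes of the troponin complex, the calcium switch of the thin filament, were all lower without overlap, and none passed the adjusted test. Tnnc2, which binds calcium, read 7.83 on W2, 6.48 on W3, 5.09 on K4 and 5.41 on K5 (-1.9 ± 0.52; limma adjusted p = 0.584). Tnni2, the inhibitory part, read 8.26, 6.32, 4.85 and 5.53 (-2.1 ± 0.71). The tropomyosin-binding part Tnnt3 read 7.68 on W2, 5.87 on W3, 4.35 on K4 and 5.16 on K5 (-2.02 ± 0.69), with 3 of 3 probes in this direction. The troponin genes had the same order of arrays, W2, W3, K5 and K4 from highest to lowest.

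At the Z-disc, where thin filaments are anchored, Actn3, the fast fibre actinin, read 5 on W2, 2.66 on W3, 1.61 on K4 and 2.59 on K5 (-1.73 ± 0.85). W3 and K5 were nearly level for this gene, so the groups were only just apart. Myoz1, which links calcineurin to the Z-disc of fast fibres, read 4.26, 1.82, -0.03 and 1.09, the most negative fast difference at -2.51 ± 0.9.

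Fast fibres also clear calcium quickly, and their calcium handling genes were lower. Pvalb, the soluble calcium buffer parvalbumin, read 7.94 on W2, 6.17 on W3, 4.61 on K4 and 5.17 on K5 (-2.16 ± 0.65). Atp2a1, the calcium pump of the fast sarcoplasmic reticulum, read 4.27, 1.34, -0.23 and 1.17 (-2.33 ± 1.07), with W3 and K5 close together. Casq1, which stores calcium in that reticulum, read 3.01 on W2, 1.31 on W3, 0.15 on K4 and 0.76 on K5 (-1.7 ± 0.63). No fast gene passed the test over all genes, and adjusted limma p lay between 0.386 and 1 in this class.

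Genes used by all striated fibres were also mostly lower, with less separation between groups. Ttn, the giant spring of the sarcomere, read 4.28 on W2, 2.65 on W3, 1.55 on K4 and 1.78 on K5 (-1.8 ± 0.59), and 6 of 6 probes gave this direction. Trdn, which holds the calcium release unit together, read 2.91, 1.36, 0.44 and 0.96 (-1.43 ± 0.58). Myot, a Z-disc protein that cross-links actin, read 2.12 on W2, 0.35 on W3, -0.98 on K4 and -0.27 on K5 (-1.86 ± 0.67). In all of these K4 was the lowest array. Xirp2, an actin-binding protein of the cell junctions and Z-disc, read 0.47, -0.92, -2.3 and -0.99 (-1.41 ± 0.67), and W3 stood above K5 by less than 0.1.

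Enzymes of rapid energy supply had the larger differences of the shared class. Pgam2, the muscle form of a glycolytic mutase, read 6.28 on W2, 4.32 on W3, 2.66 on K4 and 3.07 on K5 (-2.43 ± 0.69; 5.4-fold lower; limma adjusted p = 0.61). Eno3, the muscle enolase, read 6.38, 4.42, 3.08 and 3.44 (-2.14 ± 0.69). Ckm, the muscle creatine kinase, had the most negative difference at -2.56 ± 1.25, but its groups overlapped, since it read 5.69 on W2, 2.33 on W3, 0.52 on K4 and 2.37 on K5.

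The other 6 shared genes overlapped between groups. Acta1, skeletal actin, read 7.18 on W2, 5.52 on W3, 4.6 on K4 and 5.77 on K5 (-1.16 ± 0.7). Differences of the ruler protein Neb (-1.34), the voltage sensor Cacna1s (-1.29) and the release channel Ryr1 (-1.68) were negative with standard errors of 0.77, 0.93 and 1.03, and the 2 tested Ryr1 probes differed in direction. Actn2, the actinin of slow and cardiac fibres that fast fibres also use, differed by -0.31 ± 0.65. Tcap, which caps titin at the Z-disc, was the shared gene with a positive value, at 6.63 on W2, 3.78 on W3, 5.42 on K4 and 5.32 on K5 (0.16 ± 0.95), and its wild type arrays lay on both sides of the others.

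Slow fibre and cardiac genes gave the smallest unadjusted p-values among the members. Mb, myoglobin, the oxygen store of oxidative fibres, read 0.16 on W2, -0.1 on W3, 2.81 on K4 and 3.02 on K5. The arrays of each group lay within 0.3 of each other, and the difference was 2.89 ± 0.29 (7.41-fold higher; limma adjusted p = 0.141), rank 30 of all genes by p. Csrp3, the muscle LIM protein, a Z-disc and nuclear protein of slow fibres and heart, read -6.56 on W2 and -5.82 on W3, neither well above background, and -1.49 on K4 and -0.87 on K5, both well above it. With each wild type array set to its lowest signal well above background, the mean of K4 and K5 was 10.9-fold above theirs. From the values as read, its limma adjusted p was 0.0942 (rank 16), and with normexp correction its difference was 1.24. Sln, sarcolipin, an inhibitor of the calcium pump, read -6.18 on W2, -0.1 on W3, 3.32 on K4 and 2.91 on K5. Its difference of 6.26 ± 1.96 (adjusted p = 0.675) leaned on W2, which was not well above background, and with W2 raised to the background limit it was 5.29. It was 3.21 without W2, 9.3 without W3 and 3.71 with normexp. Among the fits with 2 arrays in each group, its limma adjusted p was under 0.05 only with normexp (0.0226).

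As read, all 3 slow troponin genes were higher without overlap on the arrays labelled SR-A1-/-, and none passed the adjusted test. For Tnnc1 this rests on wild type values that were not well above background. Tnni1, the slow inhibitory troponin, read -0.9 on W2, -0.71 on W3, 0.44 on K4 and 0.94 on K5 (1.49 ± 0.32; limma adjusted p = 0.427). Its other probe differed by 3.76 ± 0.87, with W2 and no other array under the background limit. Tnnt1, the slow tropomyosin-binding troponin, read -0.1, 1.34, 1.78 and 1.62 (1.08 ± 0.53; adjusted p = 0.92), or 0.36 without W2, where W3 was close to both arrays labelled SR-A1-/-. The other Tnnt1 probe separated the groups more, at -2.42 on W2, -1.9 on W3, 0.25 on K4 and 0.12 on K5 (2.34 ± 0.32). Tnnc1, the slow and cardiac calcium-binding troponin, read -5.47, -4.93, -4.27 and -2.88 (limma adjusted p = 0.704). It was not well above background on either wild type array and was kept for testing only through K4 and K5. With the wild type arrays raised to the background limit, the mean of K4 and K5 was 2.03-fold above theirs. The limit of W2, -4.26, lay above K4, so the groups then overlapped. The difference of Tnnc1 was 0.1 with normexp. Casq2, the calcium store protein of heart and slow fibres, read -1.81 on W2, -1.82 on W3, -0.8 on K4 and -0.58 on K5 (1.12 ± 0.28; limma adjusted p = 0.525).

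Other genes of slow fibres and heart did not separate. Actc1, cardiac actin, read 6.27 on W2, 4.99 on W3, 5.39 on K4 and 5.47 on K5 (-0.2 ± 0.49). Mybpc1, the slow myosin-binding protein (-0.03 ± 0.41), Myoz2, the slow and cardiac partner of Myoz1 (-0.07 ± 0.61), and Myl2, the slow and cardiac regulatory light chain (0.44 ± 0.42), overlapped as well. Myl2 was well above background on 1 array of each group. Myl3, the slow and cardiac essential light chain, was the exception in this class, lower without overlap at 4.17, 3.07, 2.33 and 2.69 (-1.11 ± 0.46; adjusted p = 0.82). The heavy chain Myh7, given above, also overlapped. The 7 genes of this class that were higher without overlap were Sln, Csrp3, Mb, Tnnc1, Tnni1, Casq2 and Tnnt1, and none passed the adjusted test. For Csrp3 and Tnnc1 neither wild type array was well above background, and Tnnc1 overlapped once they were raised to the background limit.

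**Figure D4:**
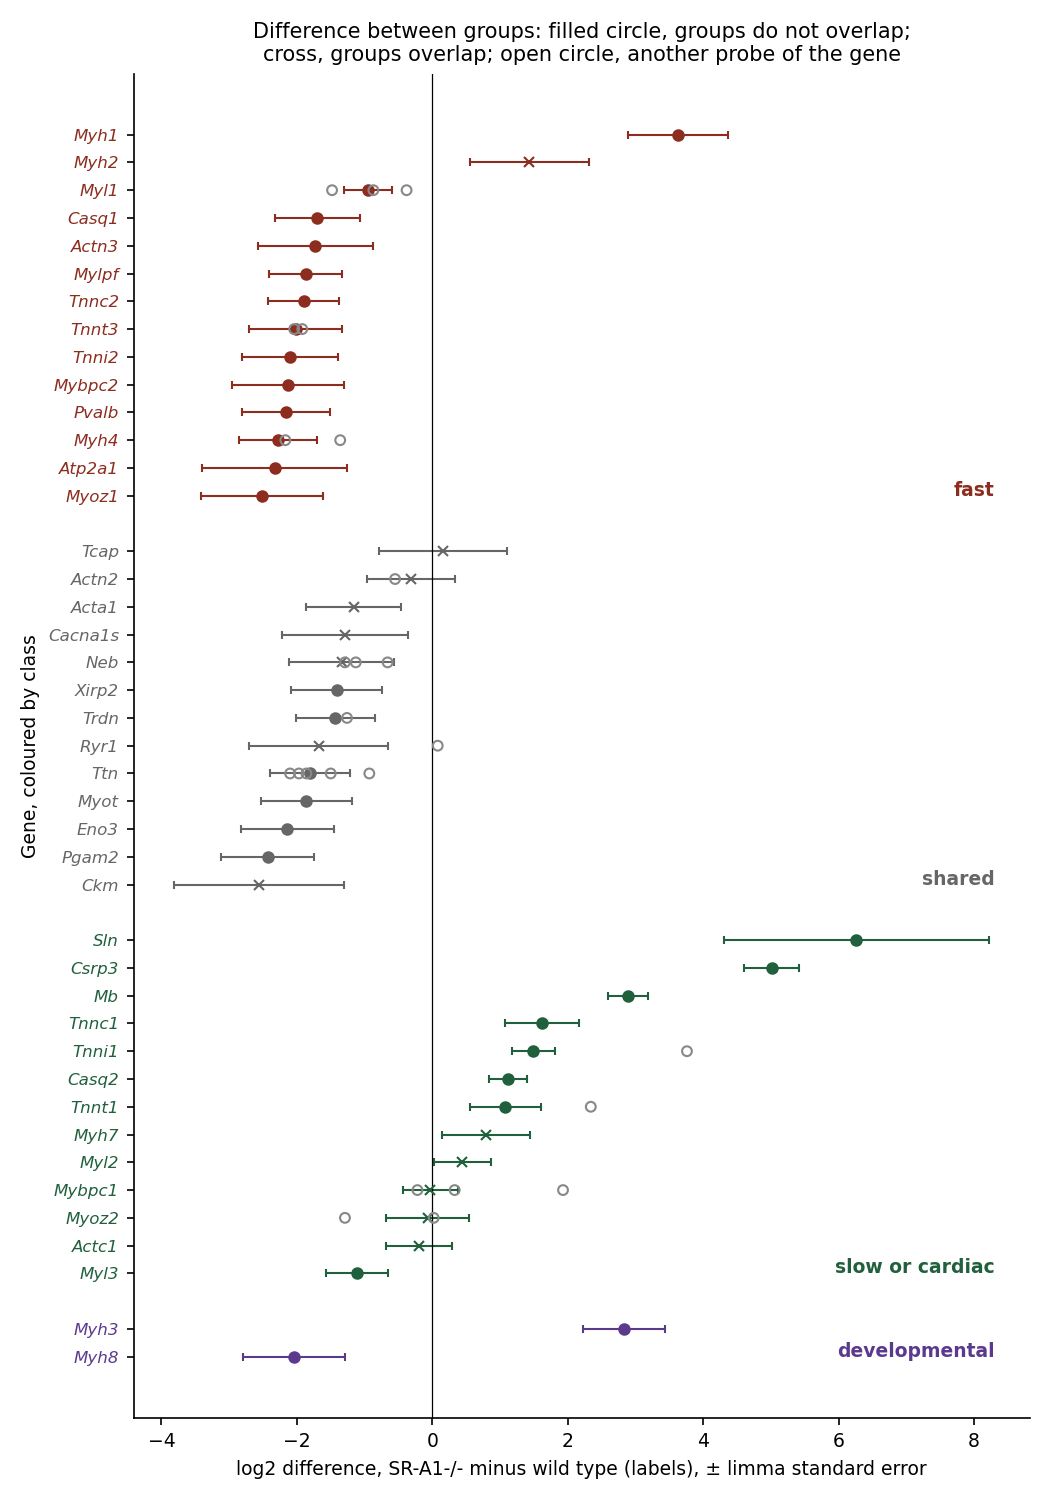
The log2 difference of each of the 42 genes, SR-A1-/- minus wild type by the labels, with the limma standard error as a bar (x axis), grouped and coloured by class (y axis). Filled circles are genes whose groups do not overlap, crosses those that overlap and open circles the other tested probes of a gene; fast and shared genes lie mostly left of 0, and Sln, Csrp3, Mb and Myh1 lie farthest right.

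Of 78 probes named for a member, 67 were tested, and 48 of them were lower and 19 higher on the arrays labelled SR-A1-/-. A single tested probe stood for 30 members. Of the 12 members with several, 9 had all probes in 1 direction, and the exceptions were Ryr1, Mybpc1 (2 of 4 probes in the direction of the brightest) and Myoz2 (2 of 3). The brightest probe was well above background on all 4 arrays for 38 members, the others being Csrp3, Tnnc1, Sln and Myl2.

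Other genes of the muscle fibre, in lists that were also drawn up with earlier results known, had medians on the same side as the fast and shared members. Over all genes, 16.1% were higher and 13.7% lower without overlap, and 3.84% and 2.45% were so at an unadjusted limma p under 0.05. Enzymes and carriers of muscle energy metabolism had 15 of 15 genes tested, 12 lower without overlap, none higher, 7 lower at an unadjusted limma p under 0.05 and a median of -1.37. Phkg1, a subunit of phosphorylase kinase, read 1.53 on W2, 0.82 on W3, -0.23 on K4 and -0.15 on K5 (-1.37 ± 0.35), and Cox6a2, the muscle form of a cytochrome oxidase subunit, differed by -2.1 ± 0.65. Excitation-contraction coupling genes had 12 of 13 tested, 7 lower without overlap, none higher, 3 at an unadjusted p under 0.05 and a median of -1.19. The smallest p-values there were those of Stac3, which couples voltage sensor and release channel (-1.66 ± 0.61), and Srl, sarcalumenin (-1.72 ± 0.65). Of 26 further sarcomere, Z-disc and M-band genes, 23 were tested, 10 were lower and 1 higher without overlap, 4 were lower at an unadjusted p under 0.05, and the median was -0.54. Tmod4, which caps thin filaments, read 2.89, 1.37, 0.19 and -0.3 (-2.19 ± 0.57), and Myom2, an M-band protein of fast fibres, differed by -1.59 ± 0.53. No gene of these lists passed the adjusted test. Over 14 alternatives the medians kept their sign, from -1.48 to -0.87 for energy metabolism, from -1.79 to -0.36 for coupling and from -0.8 to -0.18 for the further sarcomere genes; the value nearest 0 of each came without W2.

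Genes of fibre formation and of innervation were not on that side. Beside the counts here, 16.1% of all genes were higher and 13.7% lower without overlap. At an unadjusted limma p under 0.05 those shares were 3.84% and 2.45%. The myogenic list had 11 of 14 genes tested, 3 higher and 1 lower without overlap, 2 higher and none lower at an unadjusted p under 0.05, and a median of -0.05. Tmem8c, the fusion protein myomaker, read -3.4 on W2, -3.98 on W3, -1.97 on K4 and -1.44 on K5 (1.99 ± 0.37; limma adjusted p = 0.348). Myog, the differentiation factor myogenin, read -4.5, -2.74, -1.19 and -0.35 (2.85 ± 0.68; adjusted p = 0.485), with 1 wild type array under the background limit. The satellite cell genes Pax7, Pax3 and Myf5 were above background on no array. The list of neuromuscular junction and denervation genes, 15 of 15 tested, had 4 higher and 3 lower without overlap, 3 higher and 2 lower at an unadjusted p under 0.05, and a median of 0.07. Its smallest p-values belonged to acetylcholine receptor subunits. Chrnd read -6.34 on W2, -4.38 on W3, -0.41 on K4 and -1.14 on K5 (4.59 ± 0.72; limma adjusted p = 0.258), or 3.55 with the array under the background limit raised to it. Chrng, the subunit of fetal and denervated fibres, read -6.47, -3.56, -0.12 and -0.39 (4.76 ± 0.97; adjusted p = 0.384), or 3.65 when raised likewise. The adult subunit Chrne, named after its value was seen, differed by -0.14.

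**Figure D5:**
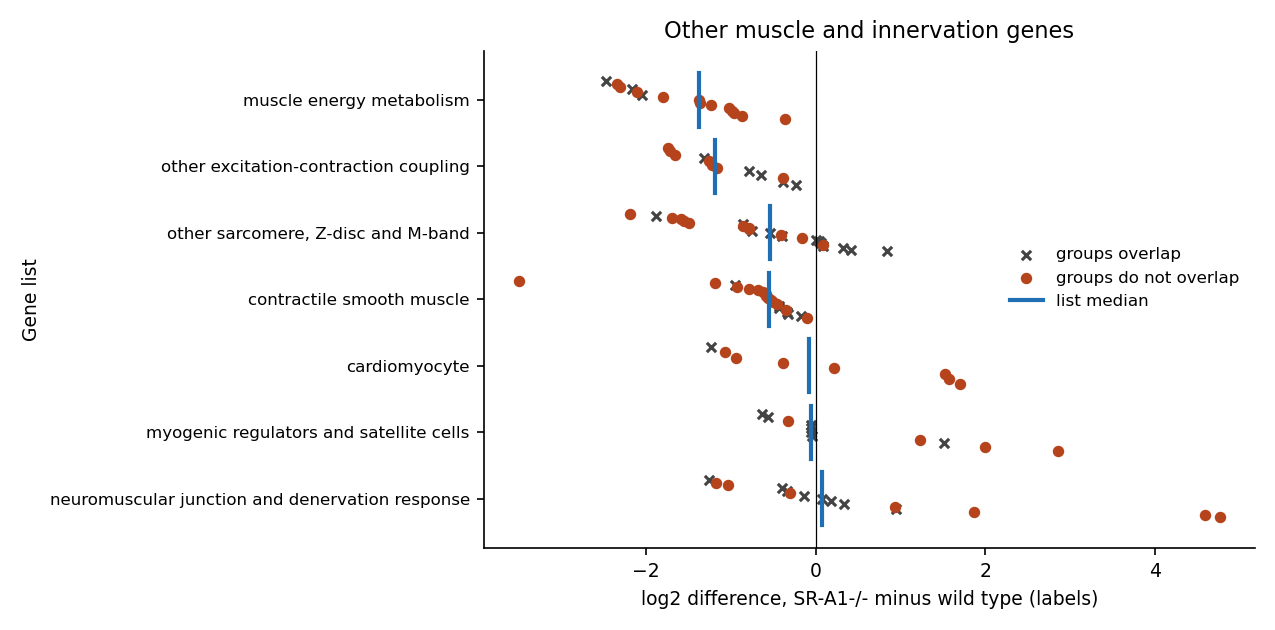
The log2 difference, SR-A1-/- minus wild type by the labels (x axis), of each tested gene of 7 lists of muscle and innervation genes (y axis), with the list median as a bar. Circles are genes whose groups do not overlap and crosses those that overlap; the medians of energy metabolism (-1.37) and excitation-contraction coupling (-1.19) lie left of 0, and Chrnd and Chrng lie farthest right.

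Markers of other cells moved between the same arrays. Their counts stand beside 16.1% of all genes higher and 13.7% lower without overlap. At an unadjusted limma p under 0.05 the shares of all genes were 3.84% and 2.45%. All 20 genes listed for contractile smooth muscle were measured, 14 were lower without overlap and none higher, 3 were lower at an unadjusted limma p under 0.05, and the median was -0.55 (from -0.67 to -0.45 over the alternatives). Whether these genes are read from smooth or striated muscle was not tested. Their summed linear signal, in units of the 75th percentile, was 3410 on W2, 2490 on W3, 2000 on K4 and 2460 on K5. Acta2 and Myh11 were well above background on all 4 arrays, at 9.47, 8.88, 8.57 and 8.92 and at 6.25, 6.11, 5.62 and 5.75, with differences of -0.43 and -0.5. The smallest p of that list was that of Synm, an intermediate filament protein, at 3.52, 3.27, -0.39 and 0.19 (-3.49 ± 0.34; adjusted p = 0.128), and Ldb3, a Z-disc gene that also stands in the sarcomere list, differed by -0.78 ± 0.27. Macrophage genes, 13 of 13 tested, had 8 higher and 1 lower without overlap, 8 higher and none lower at an unadjusted p under 0.05, and a median of 1.25 (from 1.07 to 1.67 over the alternatives), with summed signals of 175 and 352 on the wild type arrays and 300 and 301 on the others. C1qa differed by 1.74 ± 0.28 and Cd163 by 2.83 ± 0.45.

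For heart muscle, 8 of 15 marker genes were tested, 4 higher and 3 lower without overlap, 2 higher and 1 lower at an unadjusted limma p under 0.05, with a median of -0.08. Over all genes, 16.1% were higher and 13.7% lower without overlap, and 3.84% and 2.45% were so at that p. Summed signals of the heart genes were 3.45 and 6.91 on the wild type arrays and 8.79 and 15 on the others. Most of each sum came from 1 gene, Myl4, which read 1.13 on W2, 2.46 on W3, 2.97 on K4 and 3.75 on K5. Pln, the cardiac and slow fibre inhibitor of the calcium pump, counts among the higher genes (limma adjusted p = 0.368). It was well above background on K4 and K5 only, and was kept for testing through them. With the wild type arrays raised to the background limit, the mean of K4 and K5 was 1.94-fold above theirs. The cardiac release channel Ryr2 differed by -1.07 ± 0.32. The heart genes Myl7, Nppb and Nkx2-5 were above background on no array, and Myh6 was not tested, with 1 of its 2 probes above background on fewer than 2 arrays. White adipocyte markers set K5 apart, whereas brown ones were low on both W2 and K5. The 12 white adipocyte genes had summed signals of 564, 912, 879 and 59.1 on W2, W3, K4 and K5, with 1 higher and none lower without overlap, none at an unadjusted p under 0.05 and a median of -3.1, or 0.42 without K5. Cfd, an abundant adipocyte gene, read 7.76, 8.11, 7.89 and 0.45, and Lep, of the smallest p there, differed by 0.55 ± 0.34. The 10 brown adipocyte genes summed to 40.8, 512, 170 and 8.44, with 1 lower without overlap, 1 lower at an unadjusted p under 0.05 and a median of -1.3, which was -3.6 without W2, 0.81 without W3, -3.45 without K4 and -0.07 without K5. Of these, Dio2 differed by -1.27 ± 0.41 and Cox7a1, which the energy list also holds, by -2.47 ± 1.19. The brown adipocyte gene Ucp1 read -6.3 on W2, 7.09 on W3, 5.31 on K4 and -6.62 on K5. Without K5 the fast median was -2.32 and the slow or cardiac median 0.93. The part of these cell types in the muscle results was not tested.

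Promoters are shown for 1 gene of each direction, as the groups of members differed together and muscle genes are known to be driven by factors with short recognition sites. RefSeq start sites on build GRCm38.p6 gave 40 windows for 33 of the 42 members, each from 250 bases before the start to 50 after it. In every window only the 250 bases before the start were searched for motifs. Both sequences below are the 250 bases before the start, 5′ to 3′ on the gene's strand, and capitals mark the E-box (CANNTG, bound by myogenic factors), the MEF2 consensus and the CArG box, searched on both strands. Myh4 lies on the forward strand at chr11:67237562-67237811, and Csrp3 on the reverse strand at chr7:48848052-48848301, the first of its 2 start sites.
Myh4: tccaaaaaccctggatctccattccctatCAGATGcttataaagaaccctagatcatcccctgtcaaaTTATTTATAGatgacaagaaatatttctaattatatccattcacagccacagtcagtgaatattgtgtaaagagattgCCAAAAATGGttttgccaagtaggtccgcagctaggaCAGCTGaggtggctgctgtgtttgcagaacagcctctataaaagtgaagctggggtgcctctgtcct
Csrp3: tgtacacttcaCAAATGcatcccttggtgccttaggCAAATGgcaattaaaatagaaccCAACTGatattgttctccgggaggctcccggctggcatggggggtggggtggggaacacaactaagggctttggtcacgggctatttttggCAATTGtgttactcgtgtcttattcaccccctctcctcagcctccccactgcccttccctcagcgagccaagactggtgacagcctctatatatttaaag
Myh4, lower on the arrays labelled SR-A1-/-, has 2 E-boxes, 1 MEF2 match and 1 CArG match there, and Csrp3, higher, has 4 E-boxes and no match of the others. Over all 32851 RefSeq windows, 66.2% held an E-box in the 250 bases searched, 2.92% the MEF2 consensus and 1.47% the CArG box. Of the 40 member windows, 35 held an E-box (87.5%), 9 the MEF2 consensus (22.5%) and 4 the CArG box. The MEF2 consensus was in 3 of 11 windows of fast genes, 3 of 9 of shared genes and 2 of 18 of slow or cardiac genes, and an E-box in 8, 8 and 17. These are matches of letters, given as a description.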

How the data were processed

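One-colour (Cy3) Agilent arrays of total RNA from mouse abdominal aorta were used, 2 labelled wild type and 2 labelled SR-A1-/-, with 62976 spots each and no saturated spot. The processed signal used here is, per the file headers, an intensity that Agilent Feature Extraction 12.0.3.1 corrected for background and for spatial trends, with no scaling between arrays. The submitters' processing notes name version 10.7 of that program, and limma without a role. The deposited value table holds log2 values, used as an alternative. The deposited flags for outlier spots, background and saturation take 0 or 1 and served as filters.

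Outlier spots (74 to 102 an array) were left out, repeated spots averaged, and log2 signal set against each array's 75th percentile over 56605 non-control probes. Probes well above background on at least 2 arrays were kept, 35102 in all, and the brightest stood for its gene. limma 3.58.1 in R 4.3.3 (lmFit, eBayes, two-sided, Benjamini-Hochberg) was fitted over 22497 genes and tested on simulated data. An array not above background was raised, for bounds, to its lowest signal well above background or the probe's own. Precision is limited by the number of arrays.

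The members and gene lists were chosen with earlier results of these data known. Values on each array were given for every member whose groups did not overlap and each myosin heavy chain, and other lists were named by their 2 smallest p-values. Acta2, Myh11, Cfd, Chrne, Acta1, Ckm, Tcap, Actc1, Myl4, Ucp1 and markers above background on no array were added after their values were seen. Alternatives changed normalisation, background correction, dim probe filter, probe rule, model and arrays used.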

Additional observations from a re-analysis of the deposited data

How the results depend on the processing

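No paired analysis was possible because the numbers in the labels (W2 and W3, K4 and K5) are not shared between groups. Arrays of like signal level were set as a block as a technical grouping, which is no pairing of samples. Of 42 members, 35 kept their direction under every alternative that measured them, which was 14, or 13 for Csrp3, Sln and Tnnc1. The count of all genes at an adjusted p under 0.05, 0 as reported, was 8 with quantile normalisation, 8 with cyclic loess, 21 with normexp background correction, 8 with no filter, 5 with an intensity trend, 2 with array weights and 8 with the deposited values. Leaving out 1 array gave 0 to 371. At an unadjusted p under 0.05, 1416 genes became 919 with normexp and 2814 with the signal level of the arrays as a block, and 875 to 2181 without 1 array. For members, the adjusted count was 3 with normexp (Mb, Myh1 and Sln) and 0 to 24 without 1 array, being 4 without W2 and 24 without W3; the lone array left in a group is assumed to vary like the others. Members higher at an unadjusted p under 0.05 numbered 5 when every array had to be above background, which leaves 38 members, and 6 to 10 without 1 array. Members lower numbered 23 with normexp, 24 with the signal block, and 1 (without K4) to 26 (without W3). The slow or cardiac median of 1.08 was 0.16 with normexp and 0.79 with every array above background, and 0.93 to 1.23 without 1 array. Under normexp, Csrp3 differed by 1.24, Tnnc1 by 0.1 and Myh3 by 1.34; the cause was not tested. Without 1 array the fast median lay from -2.91 to -1.09, the shared median from -2.55 to -0.66 and the fast minus slow contrast from -3.96 to -2.08. Msr1 lay from 0.42 (without W2) to 3.63 (without W3), and was 0.46 with normexp. Directions turned for 7 members. Myl2 was -0.03 with normexp and Mybpc1 0.5 with the mean of probes. Without 1 array, ranges crossed 0 for Actc1 (-0.84 to 0.44), Actn2 (-1.1 to 0.48), Mybpc1 (-0.44 to 0.39), Myh7 (-0.1 to 1.68), Myoz2 (-0.76 to 0.62) and Tcap (-1.26 to 1.59).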
